A study of Homo sapiens with 20 samples.

Results

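STAG1 sites lost upon STAG2 KD are places in the genome of M14 melanoma cells where STAG1 ChIP-seq gave a peak in both WT libraries and in neither STAG2-KD library. The peaks of the 4 STAG1 lists on chromosomes 1 to 22 and X were merged into 117507 union sites, of which 57294 had a peak in both WT lists. Of these 57294, 808 were lost, which is 1.41% of them and 0.688% of the union. The others were 54417 sites present in all 4 lists, called stable here, and 2069 sites that kept a peak in 1 of the 2 STAG2-KD lists. A further 4591 union sites (3.91%) were gained, with a peak in both STAG2-KD lists and in neither WT list. The lost sites were chosen by the presence of STAG1 peaks, so their STAG1 values are given as a description without a test. The STAG2, CTCF and SMC1A lists played no part in the choice.

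M14 is an established human melanoma cell line, and the cells of all groups carried a doxycycline-inducible shRNA against STAG2. WT denotes these cells without doxycycline and STAG2-KD the same cells with it. The labels give 5 d of doxycycline for replicate 1 and no duration for replicate 2. The study's methods give 5 ug/ml for 5 d and do not set the replicates apart. The knockdown is a depletion and not a deletion of STAG2, and doxycycline was not given to the WT cells. For every antibody 2 libraries per condition were used, and nothing states that the 2 replicates of a condition were grown as separate cultures, so p-values measure only the spread between these libraries, which may be technical.

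Cohesin is a ring-shaped complex that extrudes and holds loops of chromatin. SMC1A is a subunit of the ring itself, whereas STAG1 and STAG2 are alternative subunits that bind to it, so that a ring carries either STAG1 or STAG2. CTCF is the zinc-finger protein at whose DNA motif extruding cohesin often stops, and sites with CTCF hold most of the strong cohesin peaks in many cell types. Cohesin without CTCF is known from enhancers and active promoters, where STAG2 is the more frequent partner.

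The number of STAG2 peaks fell from 79048 to 58418 between WT and STAG2-KD of replicate 1 and from 118984 to 106135 in replicate 2. The median STAG2 fold did not fall, with 8.08 (WT) and 9.11 (STAG2-KD) in replicate 1 and 4.75 and 4.87 in replicate 2. These lists do not measure how far STAG2 was depleted. STAG1 lists were longer in STAG2-KD, with 85527 against 63479 peaks in replicate 1 and 104628 against 98437 in replicate 2. Replicate 1 lists were limited by q-value and replicate 2 lists by p-value, and the sets differed in chromatin extraction and in size selection, so values are given within each replicate. All 4 antibodies of a condition and replicate shared 1 input library as their control. The lowest expected background of the STAG1 lists, which rises with the depth used by the peak caller, was 1.72 reads (WT) and 1.79 (STAG2-KD) in replicate 1, and 3.50 and 3.62 in replicate 2.

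The sequences under 6 lost sites show how differently they were built. Each is the reference sequence (hg19, plus strand) of 201 bases centred on the summit of the stronger WT STAG1 peak, and capitals mark matches to the CTCF core (CC, any 3 bases, AG, any 2 bases, GGC), the AP-1 motif TGANTCA, the M-box CATGTG, the TEAD motif GGAATG or the GC box GGGCGG on either strand, which do not overlap here. The first 2 are the strongest lost sites that held CTCF in all 4 lists, held the core and lay outside UTRs and chromosomes 8 and 18; the core begins 98 bases before the summit in the first and begins 8 bases before it in the second, which also has a TEAD match. The third is the strongest lost site of all, with CTCF in all 4 lists but none of the 5 motifs. The fourth, in an intron of RBMS3, is among the strongest with no CTCF in any list and has a TEAD match. The last 2 lie in introns of IRF2, with a CTCF core, and of MITF, with an M-box 95 bases before the summit.
SH3PXD2A intron, chr10:105512647-105512847: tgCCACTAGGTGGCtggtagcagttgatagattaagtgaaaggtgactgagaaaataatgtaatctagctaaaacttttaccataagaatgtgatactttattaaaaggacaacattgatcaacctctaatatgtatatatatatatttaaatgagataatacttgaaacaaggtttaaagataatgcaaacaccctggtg
between genes near MTUS2, chr13:29391426-29391626: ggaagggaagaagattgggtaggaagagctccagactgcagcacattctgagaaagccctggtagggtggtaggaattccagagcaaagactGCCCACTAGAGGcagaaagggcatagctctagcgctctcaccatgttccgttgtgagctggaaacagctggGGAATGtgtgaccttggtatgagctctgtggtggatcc
SGMS1 intron, chr10:52070612-52070812: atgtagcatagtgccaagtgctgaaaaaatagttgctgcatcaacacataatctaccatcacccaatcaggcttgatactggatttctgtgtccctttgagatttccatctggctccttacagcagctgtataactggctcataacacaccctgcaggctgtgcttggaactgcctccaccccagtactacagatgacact
RBMS3 intron, chr3:29566714-29566914: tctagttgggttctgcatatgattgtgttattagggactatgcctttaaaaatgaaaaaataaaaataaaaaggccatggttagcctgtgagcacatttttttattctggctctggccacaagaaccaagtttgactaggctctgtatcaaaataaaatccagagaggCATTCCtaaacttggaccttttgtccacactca
IRF2 intron, chr4:185328013-185328213: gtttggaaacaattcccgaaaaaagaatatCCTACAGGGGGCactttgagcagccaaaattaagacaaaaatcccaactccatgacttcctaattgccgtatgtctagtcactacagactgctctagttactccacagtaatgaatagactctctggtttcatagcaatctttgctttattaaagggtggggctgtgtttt
MITF intron, chr3:69951697-69951897: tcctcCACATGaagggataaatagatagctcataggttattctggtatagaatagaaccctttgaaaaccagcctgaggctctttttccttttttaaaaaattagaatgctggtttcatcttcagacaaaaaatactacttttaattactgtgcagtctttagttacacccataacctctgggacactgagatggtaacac

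Lost sites were weak STAG1 sites in WT cells. Fold is the ratio of the pileup of reads to the expected background at the summit, and the percentile of a peak is its place among the folds of its own list. The median WT STAG1 fold of the lost sites was 4.31 (replicate 1) and 3.24 (replicate 2), whereas it was 13.0 and 11.4 at stable sites. In percentiles the medians were 12.4 and 28.6 for lost sites and 56.1 and 72.3 for stable sites. No lost site reached the upper 50% of the replicate 1 list, and 20 (2.48%) did so in replicate 2. At the summit these peaks held few reads, with median pileups of 13.97 and 17.6 in the replicates, while stable sites had 42.1 and 67.7. The merged sites were also narrow, with a median width of 330 bp against 915 bp for stable sites. By the rule a lost site joins peaks of the WT lists alone and a stable site those of all 4 lists, so these widths are not like for like. The gained sites, joined from the STAG2-KD lists alone, had a median of 312 bp.

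The weakest WT STAG1 peak among lost sites had a fold of 2.62 in replicate 1 and 1.77 in replicate 2, and the strongest 8.62 and 6.67. In replicate 1, 255 lost sites (31.6%) had a WT −log10 q of at least 5, and 212 (26.2%) did in replicate 2. Just outside the rule stood the 2069 sites that kept a peak in 1 STAG2-KD list, in 1991 of them the list of replicate 2. The kept peak of these 1991 had a median fold of 3.02, against 3.76 in WT at the same sites. In the STAG2-KD lists the fifth percentile of fold was 3.47 in replicate 1 and 2.21 in replicate 2, and 733 (90.7%) and 775 (95.9%) of the lost sites had exceeded it in WT. By reads, 445 (55.1%) had a WT pileup above the fifth percentile of the replicate 1 STAG2-KD list and 679 (84.0%) above that of replicate 2. The plot of WT STAG1 percentiles shows lost and partly lost sites together at the weak end of both lists.

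**Figure D1:**
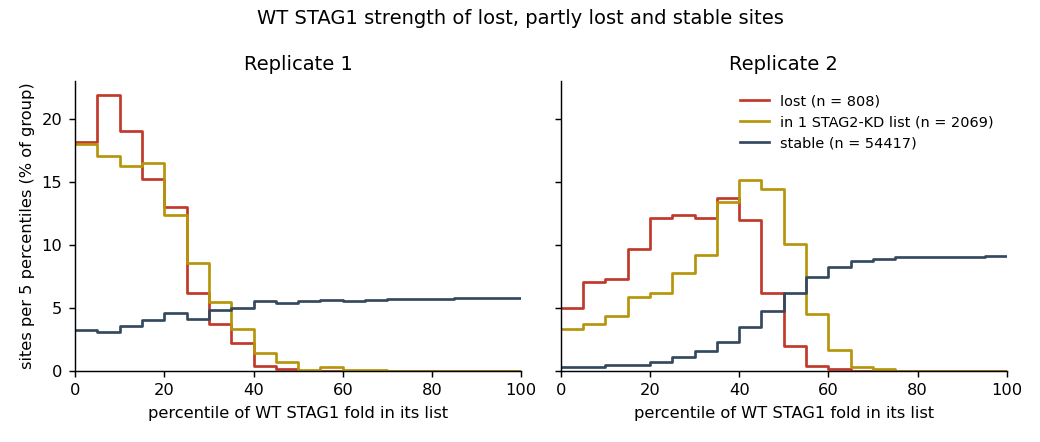
Distribution of WT STAG1 strength in replicate 1 (left) and replicate 2 (right): the x axis is the percentile of a site's fold in its WT STAG1 list and the y axis the share of each group's sites per 5 percentiles, for 808 lost sites, 2069 sites kept in 1 STAG2-KD list and 54417 stable sites. Lost sites have medians of 12.4 and 28.6, below the stable sites' 56.1 and 72.3 in the same lists.

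STAG2 was present at many of the lost STAG1 sites in WT cells and at fewer of them in STAG2-KD, in both replicates. In replicate 1, 465 of the 808 sites (57.5%) had a WT STAG2 peak and 52 (6.44%) a STAG2-KD one. In replicate 2, 672 (83.2%) had a WT peak and 370 (45.8%) a STAG2-KD peak. Both WT libraries were thus above both STAG2-KD libraries. The mean share fell by 44.2 percentage points, from 70.4% ± 18.1 (SD, n = 2) to 26.1% ± 27.8 (SD, n = 2), with p = 0.333 in a two-sided exact permutation test, the smallest that 2 libraries against 2 can give. At stable sites the shares with a STAG2 peak were 93.7% and 83.0% in replicate 1 and 98.8% and 97.4% in replicate 2.

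Counted per site with a WT STAG2 peak, 422 of 465 lost STAG1 sites had no STAG2-KD STAG2 peak in replicate 1, or 90.8% (95% Wilson interval 87.8% to 93.1%). In replicate 2 it was 316 of 672, or 47.0% (43.3% to 50.8%). Here and below, a WT peak at a STAG1 site counts as lost or missing if no STAG2-KD peak overlapped that site. Over all WT STAG2 peaks, 32.2% in replicate 1 and 22.1% in replicate 2 overlapped no STAG2-KD peak. This background takes whole WT peaks and not STAG1 sites, so it is not like for like. Stable STAG1 sites, counted as the lost ones were, had 12.5% and 1.94%. In windows of 150 bp on each side of the summit, the shares were 91.3% and 47.6% at lost sites. At stable sites they were then 12.9% and 2.03%. The intervals cover counting error only, and both replicates lay above both backgrounds. Of the 465 sites with STAG2 in both WT lists, 172 (36.99%) had it in neither STAG2-KD list, where 1.54% of all STAG1 sites of both WT lists that held STAG2 in both did, and 4.98% of all STAG2 sites of both WT lists. At the 13367 sites lost by replicate 2 alone 34.2% of STAG2 peaks were lost, and at the 4074 lost by replicate 1 alone 80.6%. Of the 465, 250 kept STAG2 only in the replicate 2 STAG2-KD list, 43 kept it in both, and none kept it in replicate 1 alone.

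**Figure D2:**
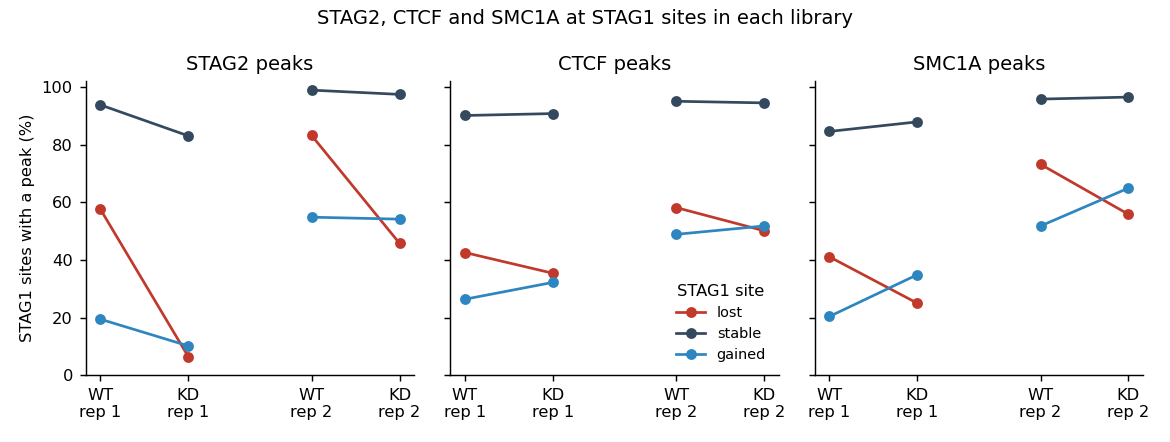
Share of STAG1 sites with a STAG2, CTCF or SMC1A peak in each library: the x axis gives condition and replicate, the y axis the percent of the group's sites, and each line joins WT and STAG2-KD (KD) of 1 replicate for 808 lost, 54417 stable and 4591 gained STAG1 sites. At lost sites STAG2 drops from 57.5% to 6.44% and from 83.2% to 45.8%, while CTCF drops from 42.6% to 35.4% and from 58.2% to 50.1%.

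Most of the lost STAG1 sites that held CTCF in WT kept it in STAG2-KD. A CTCF peak was found at 344 lost sites (42.6%) in WT and 286 (35.4%) in STAG2-KD of replicate 1, and at 470 (58.2%) and 405 (50.1%) in replicate 2. The share fell by 7.18 percentage points in replicate 1 and by 8.04 in replicate 2, but the WT and STAG2-KD libraries overlapped (two-sided exact permutation test, p = 0.667). Per site with a WT CTCF peak, 75 of 344 had none in STAG2-KD in replicate 1 (21.8%, 17.8% to 26.5%) and 84 of 470 in replicate 2 (17.9%, 14.7% to 21.6%). Over all WT CTCF peaks, again taken whole, the loss was 12.3% and 16.9%. In replicate 2 this background lay inside the interval of the lost STAG1 sites. At stable STAG1 sites it was 1.796% and 1.16%. Of 342 lost sites with CTCF in both WT lists, 269 had it in both STAG2-KD lists and 26 (7.60%) in neither, beside 0.316% of such STAG1 sites of both WT lists and 3.11% of all CTCF sites of both WT lists.

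SMC1A, the ring subunit common to STAG1 and STAG2 cohesin, lay between them. Its peak was found at 332 lost sites (41.1%) in WT and 202 (25%) in STAG2-KD of replicate 1, and at 591 (73.1%) and 451 (55.8%) in replicate 2. The share fell by 16.1 and by 17.3 percentage points within the replicates, and again the libraries overlapped (two-sided exact permutation test, p = 0.667). At the 13367 sites lost when replicate 2 alone was used, the SMC1A share was higher in STAG2-KD, by 2.12 points. Per site with a WT SMC1A peak, 179 of 332 had none in STAG2-KD in replicate 1 (53.9%, 48.5% to 59.2%) and 171 of 591 in replicate 2 (28.9%, 25.4% to 32.7%). The background over all WT SMC1A peaks, again taken whole, was 19.1% and 25.8%, the latter inside the interval of replicate 2. At stable STAG1 sites the loss was 3.51% and 1.48%. Of 331 lost sites with SMC1A in both WT lists, 57 (17.2%) had it in neither STAG2-KD list, against 0.581% of such STAG1 sites of both WT lists and 3.22% of all SMC1A sites of both WT lists.

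In no lost site were STAG2, CTCF and SMC1A all present in both WT lists and absent from both STAG2-KD lists, so no site of that kind can be named. STAG2 and SMC1A were lost together in both replicates at 22 lost sites (2.72%), against 0.103% of all STAG1 sites of both WT lists. STAG2 was lost with CTCF in all 4 lists at 67 (8.29%), against 0.897%. CTCF was present in all 4 lists at 269 lost sites (33.3%) and in none at 317 (39.2%). It was in all 4 at 88.4% of stable and 22.1% of gained sites, and in none at 4.43% and 42.0%. STAG2 was in no list at 122 lost sites (15.1%), at 0.674% of stable and at 31.8% of gained sites. A lack of these peaks was thus not particular to lost sites. None of the 3 factors had a peak in any list at 15 lost sites (1.86%), at 0.0803% of all STAG1 sites of both WT lists and at 6.64% of gained sites. In 223 lost sites (27.6%) at least 1 of the 3 was lost in both replicates, beside 2.02% of all STAG1 sites of both WT lists and 1.30% of stable sites.

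STAG2 co-loss was also read with and without CTCF. At the 269 lost STAG1 sites with CTCF in all 4 lists, 91.7% of WT STAG2 peaks were missing from STAG2-KD in replicate 1 and 52.7% in replicate 2. At the 317 with CTCF in no list the values were 92.3% and 42.3%. For SMC1A they were 47.9% and 29.7% with CTCF, and 64.7% and 28.5% without it. SMC1A loss was thus lower beside CTCF in replicate 1 and not in replicate 2, and these differences were not tested.

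Since lost sites were weak, they were also set beside stable sites of like WT STAG1 strength. The strength of the other factors was not matched, and over all sites it differed. WT STAG2 peaks had median percentiles of 29.6 and 44.4 at lost sites in the replicates, and 66.9 and 77.3 at stable sites. For SMC1A they were 30.5 and 52.8 at lost and 71.4 and 82.5 at stable sites. CTCF had 40.7 and 51.2 at lost and 70.5 and 78.7 at stable sites. In sites with a mean WT STAG1 percentile of 20 to 30, which held 287 lost and 3696 stable sites, 89.6% of the WT STAG2 peaks at lost sites and 42.3% of those at stable sites had no STAG2-KD peak in replicate 1, and 46.9% and 8.12% in replicate 2. Of WT SMC1A peaks 54.5% and 9.13% were missing in replicate 1 and 30.5% and 3.97% in replicate 2. Of WT CTCF peaks 22.7% and 9.21% were missing in replicate 1 and 17.0% and 5.96% in replicate 2. With stable sites weighted to the strength bands of the lost sites, the STAG2 loss was 46.9 percentage points higher at lost than at stable sites in replicate 1 and 38.6 in replicate 2. For SMC1A the same difference was 42.7 and 24.3 points, and for CTCF 12.6 and 11.9. Before weighting the STAG2 difference had been 78.2 points in replicate 1 and 45.1 in replicate 2. Lost sites had a higher loss than stable sites in both replicates for all 3 factors. At sites kept in 1 STAG2-KD list, not weighted, STAG2 loss was 78.8% in replicate 1 and 19.5% in replicate 2. CTCF loss there was 22.5% and 11.8%, the former above the 21.8% of lost sites, and SMC1A loss was 30.9% and 14.2%. Gained sites had STAG2 losses of 71.3% and 25.3%, CTCF losses of 15.4% and 12.1% and SMC1A losses of 23.5% and 10.8%.

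**Figure D3:**
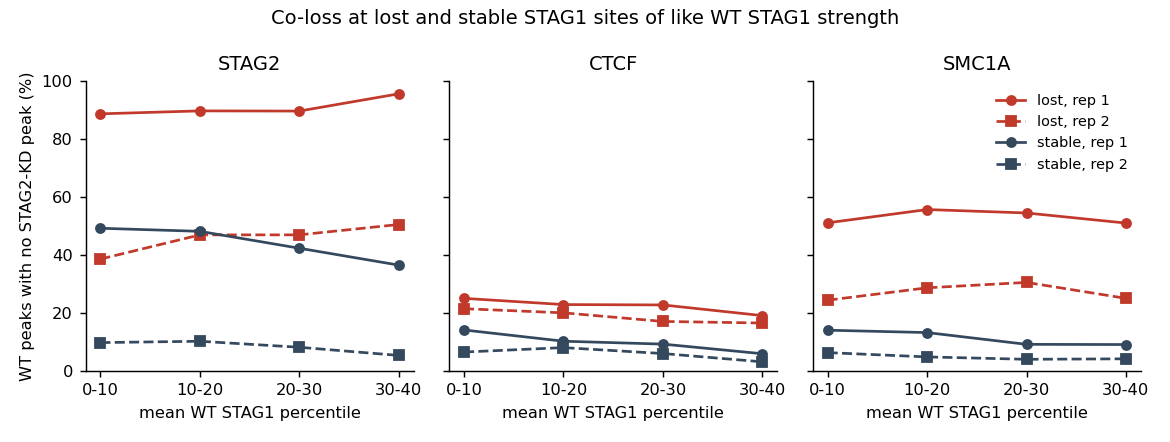
Co-loss at lost and stable STAG1 sites of like WT STAG1 strength: the x axis gives bands of the mean percentile of WT STAG1 fold (bands with at least 50 lost sites) and the y axis the percent of WT peaks of STAG2, CTCF or SMC1A with no STAG2-KD peak, in replicate 1 (circles) and replicate 2 (squares). Lost sites lie above stable sites of the same replicate in every band shown, as in the band of 20 to 30, where 89.6% and 42.3% of WT STAG2 peaks were missing in replicate 1.

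The share of STAG1 sites that were lost fell as WT strength rose. It was 17.8% of the 584 STAG1 sites of both WT lists with a mean percentile under 10, 14.6% of 1938 between 10 and 20, 6.09% of 4713 between 20 and 30, 1.83% of 6339 between 30 and 40 and 0.284% of 6693 between 40 and 50. Of 37027 sites at 50 or above, 0 were lost. These values describe the rule and were not tested.

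The expected background at a site, to which the shared input contributes, was more often higher in STAG2-KD at lost than at stable sites. Where a CTCF peak of WT and STAG2-KD allowed it to be recovered, the background relative to the lowest of its list was higher in STAG2-KD at 72.9% of 269 lost sites in replicate 1 and at 72.0% of 386 in replicate 2, against 49.6% and 52.0% of stable sites. The median log2 ratio of STAG2-KD to WT background at lost sites was 0.17 in replicate 1 and 0.16 in replicate 2, and at gained sites −0.08 and −0.06. Its part in the loss of STAG1 was not tested. Co-loss was split by this background at the same sites, so sites without a CTCF peak in both conditions are left out. These differences were not tested. Where the background was not higher in STAG2-KD, STAG2 was missing from 90.9% of 33 WT peaks in replicate 1 and 53.0% of 83 in replicate 2. Where the background was higher, STAG2 was missing from 91.9% and 49.4%. SMC1A was missing from 46.4% of 28 and 26.9% of 78 where the background was not higher, and from 48.4% and 30.9% where it was.

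Where a factor kept its peak in all 4 lists, its median percentile at lost sites was lower in the STAG2-KD list of each replicate. Percentiles depend on the other peaks of a list and on its length, which differed between conditions (82239 SMC1A peaks in WT and 91489 in STAG2-KD of replicate 1), so they give a place in a list and not a change in binding. CTCF, at 269 such lost sites, had a median percentile of 46.6 in WT and 38.4 in STAG2-KD of replicate 1, and of 61.3 and 51.9 in replicate 2. It was lower in STAG2-KD at 190 of the 269 sites (70.6%) in both replicates, against 33.7% of 48105 stable sites. SMC1A, at 153 sites, went from 40.1 to 30.2 and from 64.5 to 57.4, and was lower in both replicates at 44.4% of them against 29.4% of stable sites. STAG2, at 43 sites, went from 34.8 to 17.7 and from 54.9 to 46.5, lower in both replicates at 58.1% against 54.3%. The libraries of the conditions overlapped for each factor, with p = 0.667 for each in a two-sided exact permutation test. At stable sites the CTCF medians were 71.0 and 71.9 in replicate 1 and 80.2 and 79.0 in replicate 2. The SMC1A medians there were 72.4 and 75.1, and 85.2 and 85.4. The STAG2 medians of stable sites were also lower in STAG2-KD, falling from 71.2 to 60.6 and from 81.2 to 78.8.

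**Figure D4:**
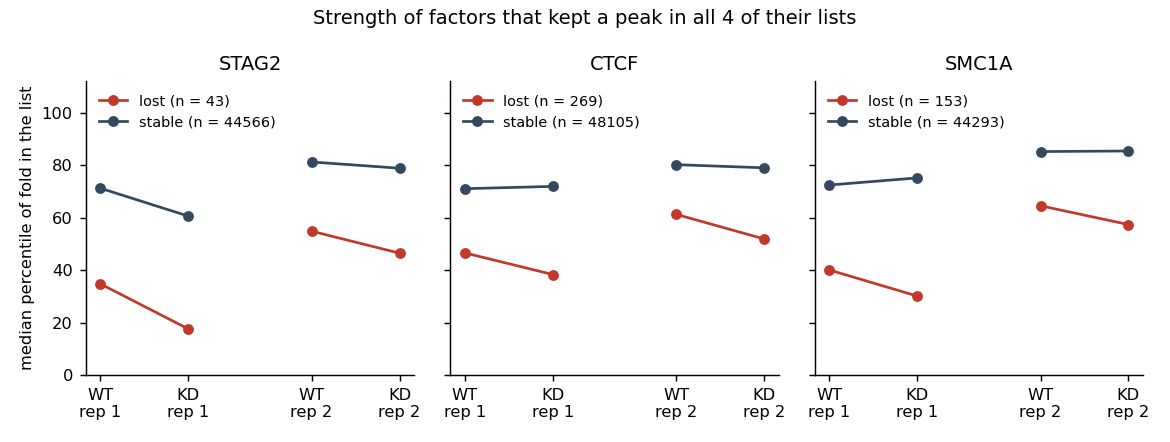
Strength of STAG2, CTCF and SMC1A peaks at STAG1 sites that held the factor in all 4 of its lists: the x axis gives condition and replicate, the y axis the median percentile of fold within each list, for lost (43, 269 and 153 sites) and stable sites. At lost sites each line goes down from WT to STAG2-KD, as for CTCF from 46.6 to 38.4 and from 61.3 to 51.9.

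More of the lost than of the stable STAG1 sites lay in introns, and fewer at promoters. By midpoint, 134 (16.6%, 95% Wilson interval 14.2% to 19.3%) were within 1 kb of a transcript start, 32 (3.96%) in other exons, 435 (53.8%, 50.4% to 57.2%) in introns and 207 (25.6%) between genes. The stable sites had 20.6% at promoters, 4.84% in exons, 44.1% in introns and 30.5% between genes. The gained sites, with a median width of 312 bp and median STAG2-KD STAG1 folds of 4.30 and 3.10, had 22.2% at promoters and 43.4% in introns. In the band of 20 to 30 in WT STAG1 percentile, 16.4% of lost and 29.1% of stable sites were promoters. The lower promoter share held for sites lost in both replicates and not for those of 1 replicate, where promoters made up 23.3% of lost and 22.3% of stable sites in replicate 2 and 27.3% and 21.6% in replicate 1. The median distance to a transcript start was 10304 bp for lost and 7196 bp for stable sites.

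Co-loss at the lost STAG1 sites was also read by place. SMC1A was missing in STAG2-KD from 30.4% of its WT peaks at lost promoter sites in replicate 1 and from 11.3% in replicate 2, compared with 60.9% and 29.97% in introns and 62.7% and 40.6% between genes. STAG2 was missing from 72.6% and 29.7% of its WT peaks at promoters, and from 95.6% and 60.5% of those between genes. CTCF was missing from 27.4% and 17.4% of its WT peaks at promoters, and from 17.6% and 21.8% between genes, with the higher value at promoters in replicate 1 and between genes in replicate 2. The values at promoters and between genes rest on 59 to 167 WT peaks each, and none of these values was set against stable sites by place or tested.

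The DNA of lost sites was poorer in G and C and in CTCF motifs. The median GC content of the 201 bases at the summit was 43.3% against 47.3% at stable and 47.3% at gained sites. The CTCF core was found at 83 lost sites (10.3%, 8.36% to 12.6%), at 28.4% of stable, 9.61% of gained and 17.5% of all union sites. In the strength band of 20 to 30 it was found at 11.5% of lost and 12.04% of stable sites, a difference smaller than that over all sites. Within lost sites the core was in 59 of the 269 (21.9%) with CTCF in all 4 lists and in 7 of the 317 (2.21%) with CTCF in none. The AP-1 motif was at 9.65% of lost, 6.95% of stable, 15.5% of gained and 10.3% of all union sites. The M-box stood at 13.1% of lost and 12.1% of all sites, the TEAD motif at 15.1% and 11.9% and the GC box at 7.43% and 11.5%. A match describes letters and does not show binding.

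**Figure D5:**
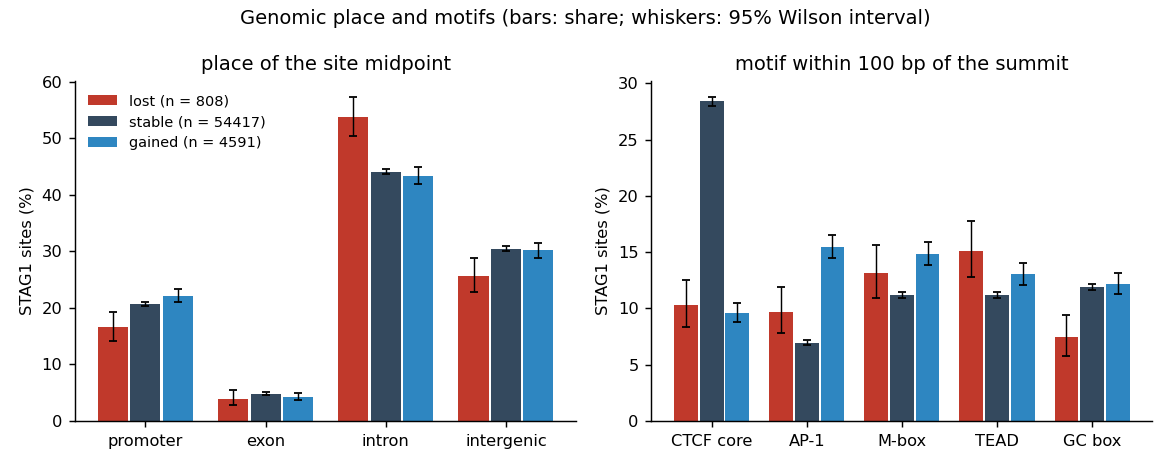
Genomic place (left) and motifs (right) of STAG1 sites: bars give the percent of 808 lost, 54417 stable and 4591 gained sites by the place of the midpoint and by a motif match within 100 bp of the summit, and whiskers the 95% Wilson interval. Introns hold 53.8% of lost and 44.1% of stable sites, and the CTCF core is at 10.3% and 28.4%.

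The strongest lost site by the sum of its WT STAG1 ranks lay in an intron of SGMS1, which encodes a sphingomyelin synthase, at chr10:52070414-52071048. Its WT STAG1 fold was 7.06 in replicate 1 and 6.67 in replicate 2. CTCF remained, with folds of 23.2 (WT) and 16.3 (STAG2-KD) in replicate 1 and of 21.8 and 15.8 in replicate 2. STAG2 had WT folds of 9.59 and 7.98 and a STAG2-KD peak in replicate 2 alone, at 3.22, and SMC1A had WT folds of 4.95 and 3.27 and no STAG2-KD peak. STAG1 and SMC1A were thus absent from both STAG2-KD lists, and STAG2 from 1, at a site where CTCF stayed. The next in rank were 2 sites in ALB, the albumin gene, where CTCF and SMC1A had no peak in any list.

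The site in an intron of SH3PXD2A, a gene for an adaptor protein of podosomes, at chr10:105512496-105512859, had the highest CTCF folds of the 8 strongest lost sites. They were 60.4 (WT) and 46.2 (STAG2-KD) in replicate 1 and 34.5 and 37.3 in replicate 2, over the CTCF core printed above. STAG1 had WT folds of 7.42 and 4.66 there, and STAG2 WT folds of 8.33 and 5.65 with a STAG2-KD peak of 3.11 in replicate 2. In LINC02328 at chr14:86424479-86424917 and the stretch at chr20:49093455-49094070, STAG2 was in neither STAG2-KD list and CTCF in both. The site in AP3B1, at chr5:77517902-77518363, lost STAG2 from folds of 13.2 and 8.59 and CTCF from the replicate 1 list only.

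In NFIX, a gene for a transcription factor, the site at chr19:13199993-13200398 lost STAG1 and STAG2 but kept both CTCF and SMC1A. SMC1A had folds of 7.42 (WT) and 4.02 (STAG2-KD) in replicate 1 and of 5.72 and 4.12 in replicate 2. CTCF went from 36.9 to 26.6 and from 30.5 to 22.1, so both folds were lower in STAG2-KD in each replicate. A fold depends on the background of its own list as well as on the pileup. At this site and those named below, a lower fold is therefore not by itself a fall in binding. The other first-ranked sites with CTCF and SMC1A in all 8 lists lay in USP4 and HK2, in which STAG2 was in neither and in 1 of the STAG2-KD lists, and in a lncRNA gene without a symbol on chromosome 8. There were 62 lost sites of this kind (7.67%), beside 71.9% of all STAG1 sites of both WT lists, 75.1% of stable and 5.40% of gained sites.

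Among the 15 lost sites with none of the other factors in any list, the first were in an exon of PABPC1, between genes near NT5C3A, in PHEX and in a lncRNA gene on chromosome 4. Their WT STAG1 folds ran from 3.35 to 4.88. After the sites in ALB and AP3B1, the strongest promoter sites lay by RNU6-937P inside PHF20 and by MIR3148, and at the former neither STAG2 nor SMC1A had a peak in any list. The ALB site was not at the start of the gene, which begins at chr4:74262831 on the plus strand. It counted as a promoter through a transcript start inside the gene, 56 bp from the site at chr4:74279107-74279362, of which 95.7% was exon. Apart from ALB, these starts belong to a small nuclear RNA, a microRNA and a pseudogene. With starts of protein-coding transcripts alone, 10.5% of lost and 12.9% of stable sites were promoters.

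Genes of 6 lists had 0 to 3 lost sites per list within 10 kb. The lists covered the study's loci, cohesin, interferon response, melanocyte lineage, the dedifferentiated melanoma state and MAPK feedback. None of the 8 study loci (29 STAG1 sites of both WT lists) and none of 13 MAPK feedback genes (40 sites) had one. The melanocyte lineage genes had 3 among 62 STAG1 sites (4.84%), the dedifferentiated state 1 of 52, the cohesin genes 1 of 47 and the interferon genes 1 of 66, beside 1.41% of all STAG1 sites of both WT lists. With 3 sites at most per list, these shares, and the lists with none, rest on very few counts.

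In MITF, the master regulator of melanocytes, the lost site at chr3:69951374-69952155 was intronic and had no CTCF in any list. WT STAG1 folds were 3.33 and 3.15, and STAG2 had WT folds of 5.20 and 6.21 and a STAG2-KD peak of 1.84 in replicate 2. SMC1A had WT folds of 4.28 and 3.71 and a STAG2-KD peak of 2.83 in replicate 2. Both peaks left in STAG2-KD had lower folds than those of replicate 2 in WT.

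In DCT, which encodes a melanin-forming enzyme, the site at chr13:95095617-95095943 kept CTCF, with 11.3 (WT) and 7.72 (STAG2-KD) in replicate 1 and 8.21 and 6.41 in replicate 2. STAG2, at 4.24 in WT of replicate 1 and also present in replicate 2, had no STAG2-KD peak. In EDNRB, the endothelin receptor of melanocyte precursors, the intronic site at chr13:78490314-78490569 held WT STAG1 folds of 3.86 and 2.65, and STAG2 and SMC1A only in the WT list of replicate 2, at 3.63 and 3.405.

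In IRF2, a transcription factor of the interferon pathway, the site at chr4:185328042-185328234 had WT STAG1 folds of 5.02 and 2.98 and WT STAG2 folds of 3.49 and 3.53, with STAG2 in neither STAG2-KD list. CTCF there was 5.81 and 4.53 in WT and was found in STAG2-KD in replicate 2 alone, at 6.10. In TEAD1, the DNA-binding partner of YAP, the site at chr11:12774886-12775169 kept CTCF in all 4 lists, with folds between 4.04 and 6.89. Before the start of SMC3, a ring subunit, the site at chr10:112326813-112327015 had WT STAG1 folds of 3.74 and 2.90 and no STAG2 or CTCF peak in any list. SMC1A there was found in replicate 2 alone, higher in STAG2-KD at 4.99 than in WT at 2.93.

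Lost sites were scattered over the genome. Their share of STAG1 sites of both WT lists ran from 0.787% on chromosome 15 to 2.71% on chromosome 13, with 42 of 1550 on the latter, and chromosome 2 held the most, 81. The median distance to the nearest other lost site was 900874 bp, and 21 lost sites (2.60%) had one within 10 kb. A stable STAG1 site lay within 10 kb of 364 (45.0%), at a median distance of 12094 bp. A STAG2-KD STAG1 peak lay within 500 bp of 4.46% of lost sites in replicate 1 and of 12.5% in replicate 2. These distances were not counted for other STAG1 sites, so they do not show whether lost sites cluster. The 575 lost sites inside genes were spread over 554 genes, of which 41 held at least 2 and 9 at least 3.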

How the data were processed

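ChIP-seq of 4 antibodies was analysed from 16 peak lists, 1 per library. Per the study's methods, the authors aligned reads with bowtie2 to hg19, removed low-quality and duplicate reads with samtools and picard and called peaks with MACS2 against input; the submitters' processing notes name Bowtie2 and MACS2 for replicate 1 and BWA, CASAVA 1.4, SAMtools, Picard, MACS2 and deepTools for replicate 2. The deposited lists hold a fold enrichment (a ratio of pileup to background), −log10 p-value and −log10 q-value, a whole-number score and a summit. The deposited score was not used. Replicate 1 lists have −log10 q of at least 2 and gaps in their peak numbers, from peaks removed by a step not given in the sources used here; replicate 2 lists have −log10 p of at least 2. Read depth per library is unknown from the lists, so intervals cover counting of sites only.

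Peaks on chromosomes 1 to 22 and X were merged where they overlapped by 1 bp, and a factor was present at a site if a peak overlapped it by 1 bp. Positions are hg19, 1-based. The pileup and the local background were recovered from fold and p-value. Places come from GENCODE v44 mapped to the same build (GRCh37). Named sites were those with the lowest sum of WT STAG1 ranks, over all and by class, and every lost site within 10 kb of a gene of the lists. 1 site named by this rule is not reported here. The members and lists were chosen with earlier results of these data known. Libraries were compared 2 against 2 by a two-sided exact permutation test (SciPy 1.17.1), which cannot go below p = 0.333. Per the labels' protocols, libraries of the same replicate number share an extraction and a size selection procedure; no label names a batch or a shared culture. Over the union sites, the correlation of the replicate difference between WT and STAG2-KD was 0.13 for STAG1 and 0.37 to 0.48 for the other antibodies. The merging and the recovery of the background were tested on simulated data. Alternatives changed the overlap, threshold, number of peaks, promoter and motif definitions and replicates; a window of 150 bp, an equal number of peaks for co-loss, the split by background and the omission of sites by numbering gaps were added after seeing the data.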

Additional observations from a re-analysis of the deposited data

How the results depend on the processing

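The count of lost sites depends on the rule. It was 808 as reported, 1029 with −log10 q of at least 2 in every list, 759 with at least 5 and 699 with peaks up to 500 bp apart merged. It was 1478 when an overlap of at least 50% of the shorter peak was required, 2377 with an equal number of strongest peaks per list, and 0 when the WT peak had to be in the strongest 50% of both lists. From 1 replicate alone it was 4074 to 13367. Which sites were shared between settings was not counted.

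The difference in the share of sites with a STAG2 peak, −44.2 percentage points, ran from −50.6 (without replicate 2) to −12.2 (without replicate 1), and that with a CTCF peak, −7.61, from −5.62 to −3.25. For SMC1A it was −16.7, and without replicate 1, at the sites lost in replicate 2 alone, it turned to 2.12, with −10.9 without replicate 2; with −log10 q of at least 5 it was −7.64. STAG2 co-loss, 68.9%, was 34.2% to 80.6% at the sites of 1 replicate, SMC1A co-loss, 41.4%, was 19.7% to 36.2%, and CTCF co-loss, 19.8%, was 21.7% to 23.3%. Weighted to strength, the excess of CTCF co-loss over stable sites moved from 18.4 to 12.3 points. The replicate block left the differences of −44.2, −7.61 and −16.7 as they were, with p = 0.5 in an exact sign-flip test, the smallest that 2 pairs allow; it changed no call.

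The promoter share, 16.6%, was 24.5% within 2 kb and 10.5% with protein-coding starts, and 23.3% to 27.3% at the sites of 1 replicate, above the 22.3% and 21.6% of stable sites there. The share with a CTCF core, 10.3%, was 5.45% within 50 bp of the summit, 5.32% with a stricter core, and 5.69% to 9.67% at the sites of 1 replicate. Every other alternative listed kept the direction, and moved a value without a test by less than the spread between replicates. The lists hold called peaks alone, so at a median of 13.97 and 17.6 reads at the summit a full loss and a fall to just below the caller's threshold cannot be told apart. Next to a missing peak number of the replicate 1 STAG2-KD list lay 14 lost sites (1.73%), against 0.850% of STAG1 sites of both WT lists.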

Other observations

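ALB, the gene for serum albumin (chr4:74262831-74287199), held 2 of the strongest lost sites, and the gene as a whole was examined after those values were seen. It had 3 STAG1 sites of both WT lists, and all 3 were lost, at chr4:74279107-74279362, chr4:74280723-74280929 and chr4:74283830-74284036. The first of these had WT STAG1 folds of 7.67 and 5.89 and WT STAG2 folds of 15.6 and 11.4. Over the whole gene, STAG2 had 10 WT peaks in replicate 1 and 11 in replicate 2, and in STAG2-KD 0 and 1. CTCF and SMC1A had 0 peaks in the gene in all 8 of their lists. The peaks lay over exons. Each of these STAG1 and STAG2 WT peaks touched one, with a median exon share of 79.9% to 100% per list, while exons make up 14.1% of the gene. The 3 lost sites were 256, 207 and 207 bp wide, and exons covered 95.7%, 86.0% and 96.1% of them. In all, 53 lost sites (6.56%) lay at least 80% in exons, a share that was not counted over other STAG1 sites. By midpoint, exons outside promoters held 3.96% of lost and 4.84% of stable sites. What the ALB peaks come from was not tested.

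In VWA8, on chromosome 13, 4 of 8 STAG1 sites of both WT lists were lost, all intronic, while the strongest STAG1 peak of the gene in each list had folds of 57.6 (WT) and 66.4 (STAG2-KD) in replicate 1 and of 36.3 and 32.8 in replicate 2. SOX5 and RBMS3 each held 4 lost sites, among 36 and 28 STAG1 sites. These genes too were picked for their number of lost sites.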
